A study of Mus musculus with 3 samples.

Results

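CD27-negative mature NK cells were described in mouse blood from 3 droplet single-cell libraries, 1 for each group. A cell was a member when it had at least 500 UMIs (unique molecules counted), at least 200 genes and at most 10% mitochondrial UMIs, under 5% of its UMIs from S100a8 and S100a9, fewer than 3 UMIs of the B cell genes Cd79a, Cd79b and Ms4a1, fewer than 2 of the T cell genes Cd3d, Cd3e, Cd3g and Trac, at least 2 of the NK receptor genes Ncr1, Klrb1c and Klra8, 0 of Cd27, and at least 1 of Klrg1 and Itgam. The rule chose 800 of 29754 filtered cells, 225 in HDCA+CLP, 434 in CLP and 141 in Sham. The blood came from C57BL/6J mice, and every library carries a time of 12 h. The HDCA+CLP group was given HDCA, read here as the bile acid hyodeoxycholic acid, and CLP, taken to be caecal ligation and puncture, an operation that models sepsis by letting gut bacteria enter the abdomen. The CLP group received CMC, read here as carboxymethylcellulose, a usual carrier for oral compounds, with the same surgery, and the Sham group is labelled as sham only, so carrier and surgery cannot be told apart in CLP against Sham. Age, sex, the number of mice behind a library and the order of treatment and surgery are not stated by the labels. The labels name the cells mononuclear cells of peripheral blood, but cells past the S100a8 and S100a9 limit, called the neutrophil gate here, made up 78.1% of HDCA+CLP, 49.0% of CLP and 3.71% of Sham cells.

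Natural killer (NK) cells are innate lymphocytes that kill infected or transformed cells with perforin and granzymes and release interferon-gamma and chemokines. Their activity is set by activating receptors, such as NKp46 (Ncr1) and NKG2D (Klrk1), against inhibitory receptors of the Ly49 (Klra) and CD94-NKG2A (Klrd1, Klrc1) families that read MHC class I. In the mouse they mature from CD27-positive stages to a CD27-negative stage with CD11b (Itgam) and KLRG1, under the transcription factors T-bet (Tbx21), Eomes, Zeb2 and Blimp-1 (Prdm1), and the mature stage is the one that patrols blood.

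With 1 library a group there is no replicate, and the members were chosen by their own counts. No test was therefore made. Levels are in CPM, the UMIs of a gene over all members per 1000000 UMIs of those members. Intervals are 95% intervals for counting error only, exact Poisson for CPM, exact conditional binomial for log2 ratios and exact Clopper-Pearson for shares. Differences between mice or preparations lie outside them. The intervals for CPM and ratios take each UMI as independent, so spread between cells lies outside these as well. Members held 1231948 UMIs in HDCA+CLP, 2826051 in CLP and 654585 in Sham, with medians of 4953, 5625 and 4312 UMIs per cell in the same order. A gene was measured when it had at least 50 UMIs over both libraries, and "past 2-fold" means a log2 ratio of at least 1 in size whose interval leaves out 0. Pairs of libraries shared 17 to 34 cell barcodes, none of them among members.

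Marker lists were set beside the label. The B cell, T cell and neutrophil lists include genes that the rule limits, so their sums were partly fixed by the choice of cells. The 14 NK markers, which include 5 rule genes, summed to 37905 CPM in HDCA+CLP, 36992 in CLP and 29788 in Sham, led by granzyme A. Of other cell types, B cell markers summed to 3.25, 1.77 and 19.9 CPM, and basophil markers to 1.62 CPM in HDCA+CLP and 0 in CLP and Sham. T cell markers summed to 109 CPM in HDCA+CLP, 83.2 in CLP and 115 in Sham, and Cd4 and Cd8b1 were at 0 in HDCA+CLP and Sham, as Cd8a was in HDCA+CLP and CLP. The 4 gamma-delta T and NKT cell markers summed to 26.8 CPM in HDCA+CLP, 31.1 in CLP and 93.2 in Sham, and the 9 markers of other innate lymphoid cells to 124, 112 and 121 CPM. The 11 neutrophil markers were found in full in HDCA+CLP and CLP and summed to 5430 and 3664 CPM, against 110 CPM in Sham, where Camp, Ngp, Ltf, Mmp8, Cxcr2 and Ly6g were at 0. Their part in the results was not tested. A gene is called "under the free RNA limit" below where members of the higher library had less than 20% of its level in the highest of the neutrophil, monocyte, B, T and platelet gates. The 10 monocyte markers, which include Ly6c2 and Ccr2, summed to 556 CPM in HDCA+CLP, 905 in CLP and 793 in Sham. The 8 monocyte genes other than Ly6c2 and Ccr2 were also counted per cell. Members with at least 2 UMIs over these 8 genes numbered 7 of 225 in HDCA+CLP, 25 of 434 in CLP and 8 of 141 in Sham. The 25 CLP cells held 1119 of the 1196 UMIs of the 8 genes among CLP members, and the 8 Sham cells 138 of 158. In HDCA+CLP the 7 cells held 25 of 60. Values without these monocyte-marked cells are given where leaving them out ended a named gene's call or changed the counts of a list given below.

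The rule genes themselves are a description of the choice. Ncr1 (NKp46) was at 317 CPM in HDCA+CLP, 381 in CLP and 852 in Sham, Klrb1c (NK1.1) at 665, 683 and 953 CPM in the same order, and Klra8 (Ly49H) at 471, 457 and 698 CPM in the same order. Klrg1 was at 195 CPM in HDCA+CLP, 176 in CLP and 270.4 in Sham, and Itgam at 196, 175 and 279.6 CPM in the same order. All 5 were highest in Sham. Both Klrg1 and Itgam were found in 30.7% of HDCA+CLP, 28.1% of CLP and 37.6% of Sham members, Klrg1 alone in 30.7%, 36.2% and 25.5%, and Itgam alone in 38.7%, 35.7% and 36.9%. Many members stood just inside the limits: 46.7% of HDCA+CLP, 43.1% of CLP and 34.8% of Sham members had exactly 1 UMI of Klrg1 and Itgam together, and 5.78%, 4.61% and 2.13% had exactly 2 NK receptor UMIs. Just outside stood 11 HDCA+CLP, 21 CLP and 4 Sham cells with 1 NK receptor UMI that met every other limit, and 13.7%, 12.8% and 13.5% of NK-gated cells with exactly 1 Cd27 UMI.

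CD27-negative mature NK cells made up the largest share of filtered cells in CLP. They were 1.87% (1.64 to 2.13) of filtered cells in HDCA+CLP, 4.0% (3.64 to 4.39) in CLP and 2.05% (1.73 to 2.41) in Sham, and the neutrophil gate shares of 78.1%, 49.0% and 3.71% enter that denominator. Of cells outside the neutrophil gate they were 8.53% (7.49 to 9.66) in HDCA+CLP, 7.85% (7.16 to 8.59) in CLP and 2.13% (1.79 to 2.50) in Sham, so that both surgery libraries stood above Sham and close to each other on this denominator. B-gate cells made up 10.7% of these cells in HDCA+CLP, 5.59% in CLP and 43.9% in Sham. With B-gate cells left out as well, members were 9.55% (8.39 to 10.8) in HDCA+CLP, 8.32% (7.58 to 9.10) in CLP and 3.79% (3.2 to 4.45) in Sham. NK cells as a whole, that is cells with at least 2 NK receptor UMIs within the other limits, were 18.8%, 17.9% and 4.01% of cells outside the neutrophil gate. Shares of a library are parts of a whole, and cell numbers per volume of blood are not given in the sources used here.

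Within NK-gated cells, the CD27-negative mature share was lower in both surgery libraries than in Sham. It was 45.4% (40.9 to 49.9) of 496 cells in HDCA+CLP, 43.8% (40.7 to 46.9) of 991 in CLP and 53.0% (46.8 to 59.1) of 266 in Sham. Absence of Cd27 and presence of Klrg1 or Itgam both depend on depth, so the gate was also applied to cells thinned to 2000 UMIs. The shares were then 29.6% (24.9 to 34.6), 29.3% (26.1 to 32.7) and 41.5% (35.2 to 48.0) in the same order. CD27-positive cells were 6.70% (4.34 to 9.81) of thinned NK-gated cells in HDCA+CLP, 5.84% (4.27 to 7.76) in CLP and 11.2% (7.51 to 15.9) in Sham. The rest, with no UMI of Cd27, Klrg1 or Itgam, were 63.7%, 64.9% and 47.3%. Klrg1 and Itgam, on which the split rests, were also lower per member in the surgery libraries, as given above, so the split and the level of its own genes cannot be told apart.

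**Figure D1:**
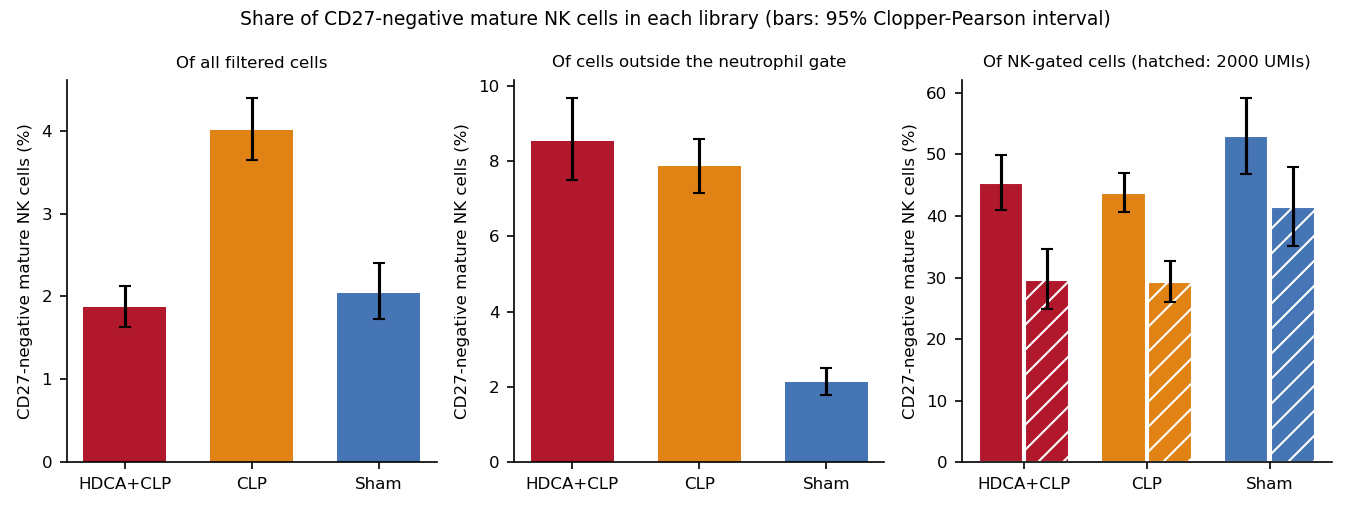
Share of CD27-negative mature NK cells in percent (y axis) in HDCA+CLP, CLP and Sham (x axis), of all filtered cells, of cells outside the neutrophil gate, and of NK-gated cells at their own depth (plain) and thinned to 2000 UMIs (hatched). Bars are shares and lines 95% Clopper-Pearson intervals; outside the neutrophil gate the shares were 8.53%, 7.85% and 2.13%.

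Set beside CD27-positive NK cells of the same library (82 in HDCA+CLP, 160 in CLP and 56 in Sham), CD27-negative mature NK cells had higher levels of 3 chemokines and of the protease genes Cma1 and Gzma. Of these CD27-positive cells 68, 127 and 36 had exactly 1 Cd27 UMI, and their gate asks for no Klrg1 or Itgam UMI. Their median depth was 5774, 6764 and 5186.5 UMIs, against 4953, 5625 and 4312 for members in the same order. What depth and the unlike gates add to the ratios was not tested. The 4 maturation markers that are not in the rule are Zeb2, S1pr5, Cx3cr1 and Prdm1. They summed to 285 CPM in CD27-negative and 192 in CD27-positive cells of HDCA+CLP. In CLP the sums were 285 and 167, and in Sham 929 and 526. By this sum, of which Zeb2 is the largest part, members of both surgery libraries lay below Sham CD27-positive cells. Cx3cr1 went the other way, being higher in members of both surgery libraries than in Sham CD27-positive cells. The word "mature" therefore names the rule here, not a level. The 6 markers of the CD27-positive list, which include Cd27 and are led by Ctla2a, summed to 1543 CPM in CD27-negative and 2820 in CD27-positive cells of HDCA+CLP. For CLP these sums were 1356 and 2077, and for Sham 541 and 2113.5. Zeb2, a repressor that drives terminal maturation, had log2 ratios of CD27-negative over CD27-positive cells of 0.83 in HDCA+CLP, 1.24 in CLP and 0.95 in Sham, and the chemokine receptor Cx3cr1 of 1.29, 1.54 and 2.31. By the same measure 69 of 4038 genes (1.71%) were higher and 13 (0.322%) lower past 2-fold in HDCA+CLP, 111 of 6358 (1.75%) and 44 (0.692%) in CLP, and 57 of 2890 (1.97%) and 26 (0.9%) in Sham. Past 2-fold in the same direction in all 3 libraries were 3 of 2819 genes measured in each (0.106%), the rule genes Klrg1 and Itgam and Cx3cr1, and 1 lower (0.0355%), the rule gene Cd27.

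Chemokines were among the 8 genes ranked highest in CD27-negative over CD27-positive NK cells of all 3 libraries. Ccl4, an inflammatory chemokine, was at 829 CPM in CD27-negative and 357 in CD27-positive cells of HDCA+CLP, 1131 and 585 in CLP, and 442 and 171 in Sham. Log2 ratios of Ccl5, another inflammatory chemokine and one of the most abundant transcripts of these cells, were 0.35, 0.60 and 0.37, and those of Ccl3 were 1.18, 0.43 and 1.02. The mast cell protease gene Cma1 had a log2 ratio of 0.67, 0.67 and 0.76, and Gzma 0.17, 0.39 and 0.68. Tmsb4x, an actin-binding peptide (log2 ratio 0.20, 0.22 and 0.23), and AW112010 (log2 ratio 0.20, 0.24 and 0.43) were also among the 8. Gzmb had log2 ratios of -0.04 in HDCA+CLP, 0.47 in CLP and 1.11 in Sham.

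Among genes lower in CD27-negative cells were several of earlier stages. Emb (embigin, a partner of monocarboxylate transporters) was at 162 CPM in CD27-negative and 416 in CD27-positive cells of HDCA+CLP, 132 and 234 in CLP, and 50.4 and 332 in Sham, the widest gap being in Sham. Cd7, an early lymphoid surface protein, had log2 ratios of -0.98, -1.77 and -1.0, and Ccr2, a chemokine receptor for leaving bone marrow, of -0.41, -0.37 and -0.96. The progenitor transcription factor Tcf7 was at 9.74 CPM in HDCA+CLP, 10.6 in CLP and 19.9 in Sham in CD27-negative cells, with ratios over CD27-positive cells of -1.59, -1.33 and -2.21. Tmsb10, Eef1a1, Rack1 and Rbm3, which serve actin binding, translation and RNA binding, were also among the 8 ranked lowest, with log2 ratios between -0.39 and -0.08. Among the CD27-positive list the cysteine protease inhibitor gene Ctla2a had a log2 ratio of -0.65, -0.40 and -1.44.

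**Figure D2:**
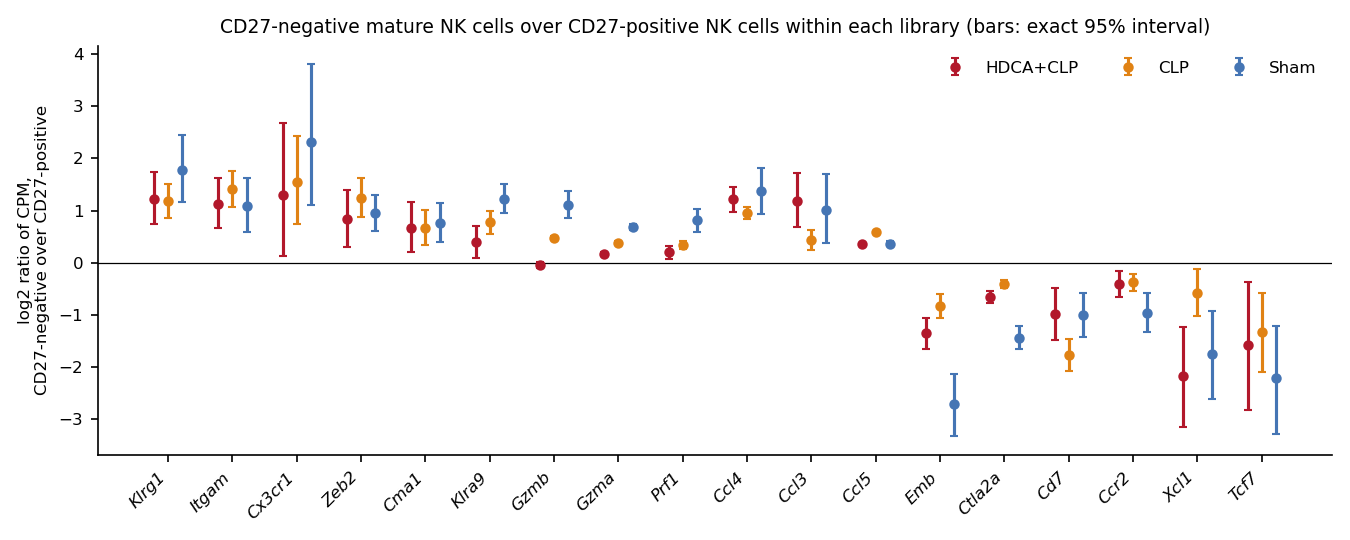
Log2 ratio of CPM (y axis) of CD27-negative mature NK cells over CD27-positive NK cells for 18 genes (x axis) in HDCA+CLP, CLP and Sham, with exact 95% intervals for counting error. Points above 0 are higher in CD27-negative cells; Klrg1 and Itgam belong to the rule, and Emb had the widest spread, at -1.36 in HDCA+CLP, -0.83 in CLP and -2.72 in Sham.

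CLP members differed from Sham members in many genes. Gzmb, Ly6a and members of the cell cycle, interferon response and inhibitory checkpoint lists were higher past 2-fold in CLP, and members of the late maturation, trafficking, inhibitory lectin-like receptor and lipid lists were lower, with the counts below. Of 6100 genes measured, 298 (4.89%) were higher and 637 (10.4%) lower past 2-fold, and the median log2 ratio of all genes was -0.25. Scaling with median-of-ratios size factors gave 483 higher and 298 lower, so the split between directions rests on the scaling. That scaling raises every ratio by 0.25, and of the 21 list medians only that of activating receptors and adaptors changes sign with it, to 0.05. Each list median below stands beside the all-gene median of -0.25, and each count beside 4.89% higher and 10.4% lower.

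Ranked first among genes higher in CLP was Ly6a (Sca-1), a surface antigen of stem cells and activated lymphocytes. It was at 574 CPM in HDCA+CLP, 371 in CLP and 1.53 in Sham, the Sham value being 1 UMI, and the log2 ratio of CLP over Sham was 7.92 (5.44 to 13.23). In cells thinned to 2000 UMIs it was found in 48.2% of HDCA+CLP, 36.6% of CLP and 0.735% of Sham members. B-gate cells held it in 63.8%, 51.2% and 26.7% in the same order, and the Sham members' share stood below each of these. Where a share is 0%, a count of 0 allows up to 1.34% in HDCA+CLP, 0.699% in CLP and 2.21% in Sham of thinned members, and up to 1.22% in HDCA+CLP, 1.02% in CLP and 0.105% in Sham of B-gate cells. CD27-positive NK cells showed a ratio of 5.65. Jaml, an adhesion molecule, had 0 UMIs in Sham, against 29.2 CPM in HDCA+CLP and 55.6 in CLP, at least 12.1-fold higher in CLP over a floor of 3 counts.

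Among granule genes 1 granzyme stood out, with 2 of 18 measured members higher and 0 lower past 2-fold and a list median of 0.42. Gzmb, which starts cell death in targets, was at 5516 CPM in HDCA+CLP, 5325 in CLP and 1045 in Sham, a log2 ratio of 2.35 (2.24 to 2.46) for CLP over Sham. Thinned to 2000 UMIs, 97.8% of HDCA+CLP, 98.1% of CLP and 63.2% of Sham members had Gzmb, against 0.407%, 4.1% and 0.175% of B-gate cells, and the median member had 9, 9 and 1 UMIs. Lamp2, a lysosomal membrane protein, was the other, at 102 CPM in CLP and 36.7 in Sham (log2 ratio 1.47). Gzma was at 27767 CPM in HDCA+CLP, 26517 in CLP and 15187 in Sham (log2 ratio 0.80, 0.77 to 0.83), and the pore-forming Prf1 at 1721, 1691 and 1234 CPM in the same order (log2 ratio 0.45, 0.35 to 0.56); both ratios lie under 2-fold with intervals above 0. Lower without passing 2-fold were the death ligand Fasl (log2 ratio -0.90), the cathepsin Ctsw (log2 ratio -0.77) and the granule-priming factor Unc13d (log2 ratio -0.84). Nkg7, needed for granule release, was at 3974 CPM in HDCA+CLP, 3974 in CLP and 4195 in Sham.

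Cytokine and chemokine genes had 4 of 10 members higher and 0 lower past 2-fold, with a median of 0.83. Ifng, the main NK cytokine, was at 140.4 CPM in HDCA+CLP, 200.3 in CLP and 88.6 in Sham (log2 ratio 1.18, 0.78 to 1.59), and in 23.2% of HDCA+CLP, 27.7% of CLP and 16.2% of Sham thinned members, against 0%, 0.683% and 0.175% of B-gate cells. Ccl4 was at 829 CPM in HDCA+CLP, 1131 in CLP and 442 in Sham (log2 ratio 1.36, 1.18 to 1.54). Il10, an anti-inflammatory cytokine, had 0 UMIs in Sham against 36.5 CPM in HDCA+CLP and 30.1 in CLP, at least 6.56-fold higher in CLP over the floor. B-gate cells had Il10 in 0%, 0.341% and 0% of thinned cells and members in 5.36% of HDCA+CLP, 6.06% of CLP and 0% of Sham. The fourth, Ccl9 (53.1 CPM in CLP and 3.06 in Sham), was under the free RNA limit.

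Inhibitory lectin-like receptors had 4 of 9 members lower and 0 higher past 2-fold, with a median of -0.80. Klra9 (Ly49I) was at 327 CPM in HDCA+CLP, 295 in CLP and 998 in Sham (log2 ratio -1.76, -1.90 to -1.61), and was found in 37.1% of HDCA+CLP, 31.5% of CLP and 65.4% of Sham thinned members, against 0%, 0% and 0.175% of B-gate cells. Klre1 was at 416 CPM in HDCA+CLP, 409 in CLP and 1236 in Sham (log2 ratio -1.60, -1.73 to -1.46), and Klrc1 (NKG2A) at 144, 203 and 506 CPM in the same order (log2 ratio -1.31, -1.51 to -1.11). Klra1 (Ly49A) had a log2 ratio of -1.05, or -0.89 without monocyte-marked cells. Klra7 (Ly49G) lay above 0 and under 2-fold, at 743 CPM in CLP and 550.0 in Sham (log2 ratio 0.43), and Klra3 (Ly49C) had a log2 ratio of 0.12. Genes of this cluster are near-identical copies, so reads can be split among them and values of single Klra genes and of Klrc1 and Klrc2 are uncertain.

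Activating receptors and their adaptors had 1 of 24 members higher and 3 lower past 2-fold, with a median of -0.20, close to the background. NKG2D (Klrk1) was at 1218 CPM in HDCA+CLP, 1202 in CLP and 1247 in Sham, and Ly49D (Klra4) at 674, 653 and 631 CPM in the same order. Lower past 2-fold were Klrc2 (NKG2C; log2 ratio -1.44), Cd160 (log2 ratio -1.75) and the adhesion receptor Cd226 (log2 ratio -1.24, under the free RNA limit), and higher was Crtam (log2 ratio 2.18), a nectin-like receptor of activated lymphocytes. The adaptors Tyrobp (log2 ratio -0.67) and Hcst (log2 ratio -0.69) did not pass 2-fold, and Klrb1a had a log2 ratio of -0.98.

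Late maturation genes had 7 of 16 members lower and 1 higher past 2-fold in CLP, with a median of -0.92. Zeb2 was at 129.9 CPM in HDCA+CLP, 139 in CLP and 545 in Sham (log2 ratio -1.97, -2.18 to -1.76), and 21.9% of HDCA+CLP, 19.3% of CLP and 59.6% of Sham thinned members had it. B-gate cells had Zeb2 in 19.9%, 17.4% and 18%, so the shares in HDCA+CLP and CLP members were near that level and the Sham share above it. The ratio was -2.40 without monocyte-marked cells. S1pr5, the sphingosine-1-phosphate receptor that lets mature NK cells leave marrow and lymph nodes, was at 37.3 CPM in HDCA+CLP, 47.4 in CLP and 186 in Sham (log2 ratio -1.97, -2.34 to -1.61). Cx3cr1 was at 35.7 CPM in HDCA+CLP, 34.3 in CLP and 97.8 in Sham (log2 ratio -1.51, -1.98 to -1.03), and Cma1 at 153, 122 and 429 CPM in the same order (log2 ratio -1.82, -2.05 to -1.59). The leukocyte integrins Itgb2 (log2 ratio -1.42) and Itgax (log2 ratio -1.32) and the Rap regulator Rap1gap2 (log2 ratio -2.11) were also past 2-fold. Tbx21, at 65.7 CPM in HDCA+CLP, 66.2 in CLP and 131 in Sham, had a log2 ratio of -0.99 (-1.37 to -0.60), just short of 2-fold, and Eomes, at 117, 102 and 310.1 CPM in the same order, had a log2 ratio of -1.61 (-1.87 to -1.34). Irf8 (log2 ratio 0.58) and Id2 (log2 ratio 0.50) lay above 0 and under 2-fold. The one higher past 2-fold, Lgals3 (197 CPM in CLP and 30.6 in Sham), was under the free RNA limit.

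Early-stage NK genes went both ways, with 4 of 14 higher and 2 lower past 2-fold and a median of 0.33. Thy1, a surface antigen of T cells and activated NK cells, was at 123 CPM in HDCA+CLP, 147 in CLP and 36.7 in Sham (log2 ratio 2.0, 1.41 to 2.66), Ctla2a at 1347, 1189 and 448 CPM in the same order (log2 ratio 1.41), and the progenitor factor Myb at 67.4, 37.9 and 13.7 CPM in the same order (log2 ratio 1.46). Emb (log2 ratio 1.38) was under the free RNA limit. Lower were Cd7 (log2 ratio -1.56) and Bach2 (log2 ratio -1.19), a repressor that keeps lymphocytes from effector fates, and Gata3 had a log2 ratio of -0.65.

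**Figure D3:**
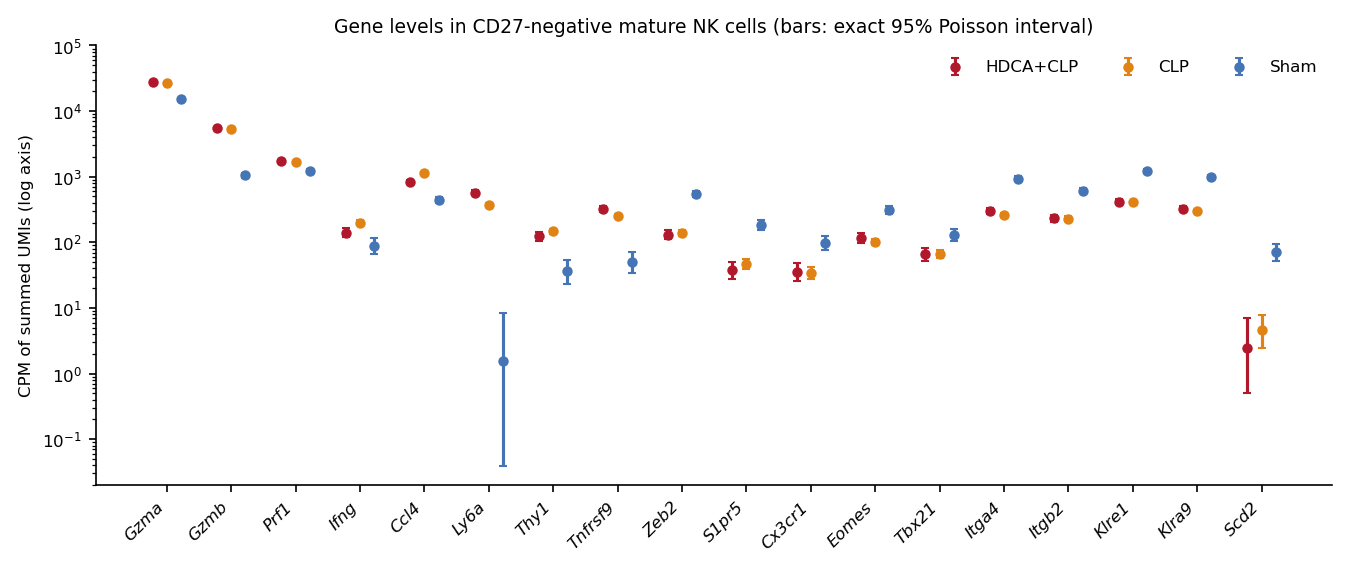
Level in CPM of summed UMIs (y axis, log scale) of 18 genes (x axis) in CD27-negative mature NK cells of HDCA+CLP, CLP and Sham, with exact 95% Poisson intervals. HDCA+CLP and CLP points lie near each other for most genes and apart from Sham, as for Gzmb at 5516 CPM in HDCA+CLP, 5325 in CLP and 1045 in Sham and Zeb2 at 129.9, 139 and 545 CPM in the same order. Genes such as Ly6a, Gzmb and Scd2 are among the most extreme of CLP over Sham, so the 18 do not stand for all genes.

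Trafficking and adhesion genes had 9 of 20 members lower and 0 higher past 2-fold, with a median of -0.81. Itga4, the alpha chain of VLA-4, was at 299.5 CPM in HDCA+CLP, 265 in CLP and 939.5 in Sham (log2 ratio -1.83, -1.98 to -1.67). Its partners Itgb1 (log2 ratio -1.31) and Itgb7 (log2 ratio -1.29) were lower as well, and so were Itgb2 at 234 CPM in HDCA+CLP, 230.0 in CLP and 616 in Sham and Itgal (log2 ratio -1.02, or -0.92 without monocyte-marked cells), the chains of LFA-1. Cxcr4, a retention receptor of marrow, had a log2 ratio of -1.13, and Rgs2, a brake on G protein signals, -1.40. S1pr5 and Cx3cr1 complete the 9. Above 0 and under 2-fold was the inflammatory chemokine receptor Ccr2 (299.7 CPM in CLP and 203 in Sham, log2 ratio 0.56).

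Receptors and kinases of cytokine signalling had 2 of 23 members higher and 4 lower past 2-fold, with a median of -0.45. The interleukin-2 and interleukin-15 receptor chain Il2rb was at 885 CPM in HDCA+CLP, 913 in CLP and 883 in Sham. On the interleukin-12 and interleukin-18 arm, which drives interferon-gamma, Tyk2 (23 CPM in CLP and 99.3 in Sham, log2 ratio -2.11), Stat4 (113 CPM in CLP and 267 in Sham, log2 ratio -1.24) and Il18r1 (105 CPM in CLP and 244 in Sham, log2 ratio -1.22) were lower past 2-fold, as was Jak1 (log2 ratio -1.08). Jak3 was higher, at 35.4 CPM in CLP and 12.2 in Sham (log2 ratio 1.53), and Stat3 (log2 ratio 0.47) lay above 0 and under 2-fold. Socs3 (108 CPM in CLP and 4.58 in Sham), the other higher member, was under the free RNA limit.

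Inhibitory checkpoint and suppressive genes had 5 of 10 members higher and 1 lower past 2-fold, with a median of 0.87. The median was 0.35 without the member under the free RNA limit, and 0.12 over the 3 genes still measured when cells were thinned before gating. Lag3, a checkpoint receptor for MHC class II, had 0 UMIs in Sham against 26.8 CPM in HDCA+CLP and 26.5 in CLP, at least 5.79-fold higher in CLP. Ctla4, a receptor that competes for CD80 and CD86, was at 43.8 CPM in HDCA+CLP, 29 in CLP and 1.53 in Sham (log2 ratio 4.25, 1.73 to 9.57), with 1 UMI in Sham, and Tigit, the counterpart of CD226, at 24.4, 18.4 and 4.58 CPM in the same order (log2 ratio 2.01, 0.38 to 4.33). All 3 are low genes: of thinned members 4.91% of HDCA+CLP, 4.2% of CLP and 0% of Sham had Lag3, against 0.407%, 0.341% and 0.0351% of B-gate cells, and 7.59% of HDCA+CLP, 4.43% of CLP and 0% of Sham had Ctla4, against 0.813%, 2.73% and 0.28%. Il10 and Cd274 (PD-L1, log2 ratio 1.39, under the free RNA limit) were the other 2, and Nr4a2 was lower (log2 ratio -1.28). Tnfrsf9 (4-1BB), an activation-induced costimulatory receptor outside the list, was at 326 CPM in HDCA+CLP, 251 in CLP and 50.4 in Sham (log2 ratio 2.32, 1.81 to 2.87), and was found in 31.2% of HDCA+CLP, 21.9% of CLP and 5.88% of Sham thinned members, against 0%, 0.341% and 0.0351% of B-gate cells.

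In the type I interferon response list, 15 of 32 measured genes were higher and 1 lower past 2-fold, with a median of 0.92. Without the members under the free RNA limit the counts were 8 and 1, with a median of 0.37, and without monocyte-marked cells 8 and 2 of 26, with 0.56. Past that limit stood Ly6a, Zbp1, a sensor of left-handed nucleic acid (218 CPM in HDCA+CLP, 192 in CLP and 45.8 in Sham; log2 ratio 2.07, 1.54 to 2.65), and Mx1, an antiviral GTPase (33.3, 20.2 and 3.06 CPM in the same order; log2 ratio 2.72, 0.80 to 5.80). Bst2 (tetherin), which holds budding virus, was at 86 CPM in HDCA+CLP, 71.1 in CLP and 32.1 in Sham (log2 ratio 1.15, 0.50 to 1.87). Isg15, a ubiquitin-like modifier, was at 74.7, 65.1 and 18.3 CPM in the same order (log2 ratio 1.83, 0.99 to 2.81) and was under the limit. Sp100, a nuclear body protein, was lower (187 CPM in CLP and 429 in Sham, log2 ratio -1.20), and Ifi203 (log2 ratio -0.73) and Ifi208 (21.9 CPM in CLP and 39.7 in Sham, log2 ratio -0.86) lay below 0. Ifitm3 had a log2 ratio of 2.21, or 4.27 without monocyte-marked cells.

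Interferon-gamma response genes had 5 of 15 members higher and 0 lower past 2-fold, with a median of 0.41. Serpina3g, a protease inhibitor of lymphocytes, was at 279 CPM in HDCA+CLP, 284 in CLP and 65.7 in Sham (log2 ratio 2.11, 1.67 to 2.59), and the guanylate-binding protein gene Gbp2 at 72.2, 44.2 and 16.8 CPM in the same order (log2 ratio 1.40, 0.51 to 2.44). Gbp3 (log2 ratio 1.13), Igtp (log2 ratio 1.36) and Cd274 were the others, the last pair under the free RNA limit, and Gbp4 had a log2 ratio of 0.69. Gbp genes are close copies and single values are uncertain. MHC class I presentation had 2 of 19 members higher and 0 lower past 2-fold, with a median of 0.57. The peptide transporter Tap1 was at 245 CPM in HDCA+CLP, 178 in CLP and 82.5 in Sham (log2 ratio 1.11, 0.70 to 1.54) and H2-Q4 at 447, 421 and 205 CPM in the same order (log2 ratio 1.04), while B2m (log2 ratio 0.57) and the proteasome activator Psme1 (log2 ratio 0.80) lay above 0 and under 2-fold.

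Promoters of 4 interferon response genes that were at different levels are shown because their letters hold matches to the core of the interferon-stimulated response element, which IRF9 and other IRF factors are known to bind. Sequences are from RefSeq, build GRCm38.p6, from 250 bases before to 50 after each gene's start, read 5′ to 3′ on the gene's strand. The motif searched was GAAA, any 2 bases and GAAA again, on both strands, with overlapping matches allowed. Matches are in capitals, and one on the other strand reads TTTC, any 2 bases and TTTC. Isg15 and Bst2 were higher past 2-fold in CLP, Gbp2 was the interferon-gamma response gene next to Serpina3g in rank, and Ifi208 was not higher. They lie at chr4:156200769-156201068 on the minus strand, chr8:71537423-71537722 on the minus strand, chr3:142620413-142620712 on the plus strand and chr1:173673415-173673714 on the plus strand.
Isg15: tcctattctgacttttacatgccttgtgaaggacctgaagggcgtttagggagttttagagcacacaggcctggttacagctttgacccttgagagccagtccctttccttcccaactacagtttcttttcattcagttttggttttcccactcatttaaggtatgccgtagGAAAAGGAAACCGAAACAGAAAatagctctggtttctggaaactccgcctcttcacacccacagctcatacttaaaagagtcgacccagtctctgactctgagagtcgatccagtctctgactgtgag
Bst2: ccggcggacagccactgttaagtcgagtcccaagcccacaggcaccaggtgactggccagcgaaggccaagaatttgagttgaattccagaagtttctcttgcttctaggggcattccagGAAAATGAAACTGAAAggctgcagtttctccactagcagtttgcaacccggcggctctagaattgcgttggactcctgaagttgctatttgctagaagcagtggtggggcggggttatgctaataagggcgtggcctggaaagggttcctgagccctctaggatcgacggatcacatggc
Gbp2: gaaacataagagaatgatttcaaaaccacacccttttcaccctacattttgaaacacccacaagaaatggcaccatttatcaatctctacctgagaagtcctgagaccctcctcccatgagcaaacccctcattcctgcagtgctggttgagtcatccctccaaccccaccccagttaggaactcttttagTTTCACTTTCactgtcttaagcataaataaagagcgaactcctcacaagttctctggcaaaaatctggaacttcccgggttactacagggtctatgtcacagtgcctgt
Ifi208: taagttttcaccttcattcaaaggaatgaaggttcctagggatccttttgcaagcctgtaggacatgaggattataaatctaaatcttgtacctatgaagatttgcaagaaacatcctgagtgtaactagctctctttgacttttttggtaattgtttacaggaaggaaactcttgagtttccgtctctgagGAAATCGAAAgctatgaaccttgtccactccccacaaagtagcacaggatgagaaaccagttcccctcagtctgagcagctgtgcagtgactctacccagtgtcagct

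The motif stood in the windows of 1079 of 27025 genes (3.99%) and of 212 of 4884 measured genes with a promoter in the table (4.34%). Of the type I interferon response genes, 23 of 32 measured ones were matched, and 14 of these held it. By level in members, 5 of 8 matched genes that were higher past 2-fold held the motif, 9 of 14 that did not pass, and 0 of 1 that was lower. For interferon-gamma response genes the counts were 3 of 5 that were higher and 4 of 6 that did not pass. Isg15 had 3 overlapping matches, the first beginning 78 bases before the start, Bst2 had 2, and Gbp2 and Ifi208 had 1 each, at 59 and 58 bases before the start. A match describes letters and is not a bound site.

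Cell cycle genes had 13 of 31 members higher and 0 lower past 2-fold in CLP, with a median of 0.71. Ube2c, which tags mitotic cyclins for destruction, was at 37.3 CPM in HDCA+CLP, 102 in CLP and 6.11 in Sham (log2 ratio 4.06, 2.69 to 5.95), the mitotic checkpoint activator Cdc20 at 17, 33.6 and 1.53 CPM in the same order (log2 ratio 4.46, 1.95 to 9.78), and Mki67 at 99, 116 and 30.6 CPM in the same order (log2 ratio 1.93, 1.27 to 2.66). Ccnb1 (cyclin B1) had 0 UMIs in Sham against 11.4 CPM in HDCA+CLP and 25.1 in CLP, at least 5.48-fold higher in CLP. The replication clamp Pcna was at 48.7 CPM in HDCA+CLP, 45.3 in CLP and 82.5 in Sham (log2 ratio -0.87), and the replicative helicase genes Mcm2 to Mcm7 had ratios between -0.99 and -0.34, none past 2-fold. In thinned cells, at least 2 UMIs over 9 proliferation genes were found in 16 of 224 HDCA+CLP members (7.14%, 4.14 to 11.3), 32 of 429 CLP members (7.46%, 5.16 to 10.4) and 2 of 136 Sham members (1.47%, 0.179 to 5.21). In B-gate cells the shares were 1.22%, 2.39% and 0.105%. Those of CD27-positive NK cells were 6.17% (2.03 to 13.8) in HDCA+CLP, 10.1% (5.86 to 15.8) in CLP and 1.82% (0.046 to 9.72) in Sham, so the pattern was not particular to members.

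Of 43 nuclear genes of the respiratory chain measured, 0 were past 2-fold in either direction, with a median of 0.16. Glycolysis and hypoxia genes had 3 of 14 higher and 1 lower, with a median of 0.29: Gapdh was at 806 CPM in HDCA+CLP, 873 in CLP and 426 in Sham (log2 ratio 1.03), Hif1a, the oxygen-regulated transcription factor, at 117, 91.6 and 36.7 CPM in the same order (log2 ratio 1.32), and the phosphofructokinase Pfkl had a log2 ratio of -1.62. Pkm, the other higher one, was under the free RNA limit. Growth and amino acid transport genes had 1 of 19 higher, the ornithine decarboxylase Odc1 (74 CPM in CLP and 24.4 in Sham, log2 ratio 1.60), and 0 lower, with a median of 0.02.

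Cholesterol and bile acid sensing had 3 of 7 measured members lower and 0 higher past 2-fold, with a median of -0.61. The desaturase Scd2 was at 2.44 CPM in HDCA+CLP, 4.6 in CLP and 71.8 in Sham (log2 ratio -3.96, -4.97 to -3.05), the LDL receptor ligase Mylip at 42.2, 35.4 and 151 CPM in the same order (log2 ratio -2.10, -2.51 to -1.68), and the fatty acid synthase Fasn had a log2 ratio of -1.15. Gpbar1 (TGR5) and Nr1h4 (FXR), receptors for bile acids, had 0 UMIs in members of all 3 libraries; 3 counts would be 2.44 CPM in HDCA+CLP, 1.06 in CLP and 4.58 in Sham.

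Genes of stress, death and innate signalling were mixed. BCL2 family and death genes had 4 of 20 higher and 0 lower past 2-fold, with a median of 0.08. The death receptor Fas was at 30 CPM in HDCA+CLP, 24.8 in CLP and 1.53 in Sham (log2 ratio 4.02, 1.49 to 9.34), with 1 UMI in Sham, and the inhibitor of apoptosis Birc3 at 58.4, 49.5 and 24.4 CPM in the same order (log2 ratio 1.02). Bcl2a1d (log2 ratio 2.71) and Bcl2a1b (log2 ratio 1.40, under the free RNA limit) are copies that reads may not separate, and Bcl2 had a log2 ratio of -0.47. Glucocorticoid response genes had 2 of 16 higher and 5 lower, with a median of -0.55. The receptor Nr3c1 itself was at 50.3 CPM in HDCA+CLP, 35.4 in CLP and 127 in Sham (log2 ratio -1.84, -2.28 to -1.40), Sesn1 had a log2 ratio of -1.72 and Fkbp5 0.28. Of the 2 higher, Mt1 was under the free RNA limit and Nfkbia was at 433 CPM in HDCA+CLP, 528 in CLP and 220.0 in Sham (log2 ratio 1.26, or 1.01 without monocyte-marked cells). Immediate early genes had 4 of 21 higher and 2 lower, with a median of -0.37, Btg2 being lower (log2 ratio -1.25) and Dusp2 having a log2 ratio of -0.74. Without the 8 members of this list under the free RNA limit the counts were 2 higher and 1 lower. TLR and NF-kappaB genes had 3 of 15 higher and 0 lower, and their median of 0.13 turned to -0.08 without monocyte-marked cells, -0.12 as a mean over cells, -0.21 when thinned before gating and -0.25 with at least 100 UMIs a gene; Nfkb2 had a log2 ratio of 1.5, and Cd14 was under the free RNA limit.

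Ranked by the interval bound nearest to 0, the remaining genes higher in CLP were Gadd45g, a stress response gene (157 CPM in HDCA+CLP, 168 in CLP and 24.4 in Sham; log2 ratio 2.78), and the tetraspanin Tspan13 (335, 279 and 65.7 CPM in the same order; log2 ratio 2.09). Among those lower were the tetraspanin Tspan32 (28.4, 36.8 and 176 CPM in the same order; log2 ratio -2.26), the selenium carrier Selenop (log2 ratio -2.46), the chromatin remodeller Chd3 (log2 ratio -2.24), Arl4d (log2 ratio -2.33), the growth factor Pdgfb (log2 ratio -2.32) and the MAX partner Mxd4 (log2 ratio -2.11). For each of these 8 genes the HDCA+CLP level was nearer to CLP than to Sham on the log scale. They were picked for their distance between CLP and Sham, and no share over all genes is given. This therefore does not show that HDCA+CLP and CLP are alike. No gene was past 2-fold in opposite directions in CD27-negative and CD27-positive NK cells among 3757 genes measured in both. The number past 2-fold in both subsets is not given, so this does not show that the subsets agree. Ratios of CLP over Sham in CD27-positive cells were 2.99 for Gzmb, 3.96 for Tnfrsf9, -2.26 for Zeb2, -2.21 for S1pr5, -3.75 for Scd2 and -1.03 for Itga4, the last being -1.83 in CD27-negative cells. Whether any of these ratios differs between the 2 subsets was not tested.

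Leaving out monocyte-marked cells changed the higher and lower counts of several lists in CLP over Sham. They became 5 and 0 of 10 for cytokines and chemokines, 1 and 2 of 23 for activating receptors, 0 and 3 of 9 for inhibitory lectin-like receptors, 2 and 5 of 23 for cytokine signalling, and 0 and 8 of 20 for trafficking. For checkpoint genes they became 4 and 0 of 8, for the interferon-gamma response 6 and 0 of 15, for MHC class I 3 and 0 of 19, and for the cell cycle 12 and 1 of 31. Glycolysis genes had 2 and 1 of 14, immediate early genes 3 and 2 of 19, glucocorticoid response genes 1 and 5 of 15, lipid genes 0 and 2 of 5, and TLR genes 2 and 0 of 14. In HDCA+CLP over CLP the cell cycle counts became 0 and 5 of 31 and those of growth genes 0 and 2 of 18. There, late maturation genes went from 0 and 1 of 16 to 0 and 0 of 15. Glucocorticoid response genes went from 0 and 1 of 17 to 0 and 0 of 16, and type I interferon response genes from 2 and 2 of 37 to 3 and 0 of 31.

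**Figure D4:**
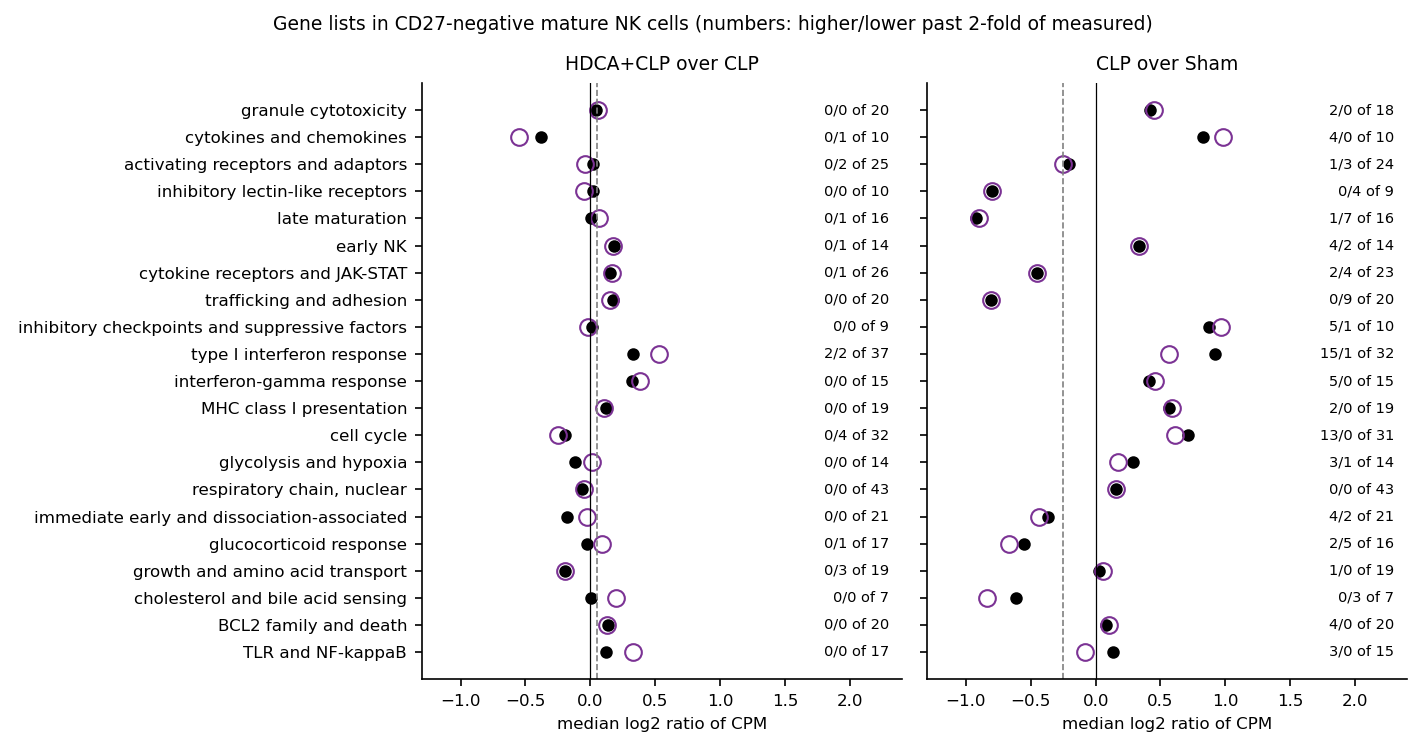
Median log2 ratio of CPM (x axis) over the measured members of 21 gene lists (y axis) in CD27-negative mature NK cells, HDCA+CLP over CLP on the left and CLP over Sham on the right. Filled points use all members, open circles leave out monocyte-marked cells, dashed lines are the all-gene medians of 0.05 and -0.25, and numbers are genes higher and lower past 2-fold of those measured; the spread of medians is wider on the right.

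HDCA+CLP members differed from CLP members past 2-fold in few genes. Of 6383 genes measured, 28 (0.439%) were higher and 96 (1.5%) lower past 2-fold, and the median log2 ratio of all genes was 0.05. Without monocyte-marked cells 36 genes were lower past 2-fold. Ifitm3 had a log2 ratio of -2.03, or 0.59 without these cells, and Lgals3 had a log2 ratio of -1.31, or -0.40 without them. The 2 comparisons share the CLP library, so a high or low value in it enters both with opposite sign.

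Gzmb had a log2 ratio of 0.05 (0.01 to 0.09) for HDCA+CLP over CLP, Gzma of 0.07 (0.05 to 0.08) and Prf1 of 0.03 (-0.05 to 0.10). Maturation genes gave -0.10 (-0.38 to 0.17) for Zeb2, -0.34 (-0.86 to 0.15) for S1pr5, 0.06 (-0.49 to 0.59) for Cx3cr1, 0.20 (-0.10 to 0.50) for Eomes and -0.01 (-0.40 to 0.37) for Tbx21. No granule gene of 20, no trafficking gene of 20, no inhibitory lectin-like receptor of 10, no checkpoint gene of 9 and no cholesterol or bile acid sensing gene of 7 was past 2-fold, with list medians of 0.04, 0.18, 0.02, 0.01 and 0.01. Scaled with size factors, those of the granule, receptor, checkpoint and bile acid lists change sign, to between -0.04 and -0.01. The intervals above hold counting error only, so they neither bound a difference between groups nor show that the groups are alike. Over the processing settings run, the ratio ranged from -0.03 to 0.25 for Gzmb, from 0.001 to 0.08 for Gzma and from -0.05 to 0.06 for Prf1.

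Of 10 cytokine and chemokine genes, 1 was lower past 2-fold in HDCA+CLP and 0 higher, with a median of -0.38. Xcl1, the ligand that draws cross-presenting dendritic cells, was at 13 CPM in HDCA+CLP against 38.6 in CLP (log2 ratio -1.57, -2.43 to -0.81). Ccl3 was at 185 CPM in HDCA+CLP against 312 in CLP (log2 ratio -0.75, -0.97 to -0.54), Ccl4 at 829 CPM in HDCA+CLP against 1131 in CLP (log2 ratio -0.45, -0.55 to -0.35) and Ifng at 140.4 CPM in HDCA+CLP against 200.3 in CLP (log2 ratio -0.51, -0.77 to -0.26), none past 2-fold and all with intervals below 0. For Ccl3 the HDCA+CLP level lay near that of Sham, 167 CPM. In CD27-positive cells the ratio was -1.51 for Ccl3 and 0.03 for Xcl1. Among activating receptors and adaptors, 2 of 25 were lower and 0 higher past 2-fold: Lat, the scaffold of activation signals, at 21.1 CPM in HDCA+CLP against 50.6 in CLP (log2 ratio -1.26, -1.92 to -0.65), and Cd160 at 6.49 CPM in HDCA+CLP against 15.9 in CLP (log2 ratio -1.29, -2.59 to -0.19). Il15ra, which presents interleukin-15, was the 1 of 26 cytokine signalling genes past 2-fold, 0 of 24 without monocyte-marked cells, at 6.49 CPM in HDCA+CLP against 14.9 in CLP (log2 ratio -1.19), while the interferon-gamma receptor chain Ifngr1 was at 1188 CPM in HDCA+CLP against 832 in CLP (log2 ratio 0.52, 0.42 to 0.61).

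Cell cycle genes had 4 of 32 members lower and 0 higher past 2-fold in HDCA+CLP, with a median of -0.19. When cells were thinned before gating, 17 were measured and the median was -0.80. Ube2c was at 37.3 CPM in HDCA+CLP against 102 in CLP (log2 ratio -1.45, -1.94 to -1.0), Cdk1, the mitotic kinase, at 12.2 CPM in HDCA+CLP against 30.4 in CLP (log2 ratio -1.32, -2.22 to -0.52), and the centromere protein gene Cenpf at 34.9 CPM in HDCA+CLP against 70.1 in CLP (log2 ratio -1.01, -1.52 to -0.52). Ccnb1 had a log2 ratio of -1.14. Mki67, at 99 CPM in HDCA+CLP and 116 in CLP, had a log2 ratio of -0.23 (-0.54 to 0.08). Thinned before gating, the log2 ratio was -1.10 for Mki67, -3.15 for Cenpf and -2.51 for Ube2c. The share of members with at least 2 proliferation UMIs was 7.14% in HDCA+CLP and 7.46% in CLP, with overlapping intervals. Of growth genes 3 of 19 were lower past 2-fold, Myc (14.6 CPM in HDCA+CLP against 29.4 in CLP, log2 ratio -1.01), the nucleolar GTPase Gnl3 (log2 ratio -1.04) and the spermidine synthase Srm (log2 ratio -1.42), with a list median of -0.19.

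In the type I interferon response list, 2 of 37 measured genes were higher and 2 lower past 2-fold in HDCA+CLP over CLP, with a median of 0.33. Eif2ak2 (PKR), a kinase that senses double-stranded RNA, was at 56.8 CPM in HDCA+CLP against 26.2 in CLP (log2 ratio 1.12, 0.63 to 1.61), and Trim30d at 43 CPM in HDCA+CLP against 20.2 in CLP (log2 ratio 1.09, 0.53 to 1.66). Ly6a had a log2 ratio of 0.63 (0.49 to 0.77). The 2 lower, Ifitm3 and Slfn5 (log2 ratio -1.78), were at 0.59 and 0.10 without monocyte-marked cells, the second on under 50 UMIs, when the list median was 0.53. Interferon-gamma response genes had 0 of 15 past 2-fold in either direction and a median of 0.32. Ratios above 0 were held by 29 of 37 and 13 of 15 members of these lists, and by 3639 of all 6383 genes measured (57.0%). The interferon-gamma list held Gbp7 (116 CPM in HDCA+CLP against 74.7 in CLP, log2 ratio 0.64), Gbp2 (log2 ratio 0.71) and Irgm1 (log2 ratio 0.69), and the MHC class I list Tap1 (log2 ratio 0.46) and Tap2 (log2 ratio 0.61), with 0 of 19 past 2-fold.

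By rank, the genes highest over CLP were Dtx3l, a ubiquitin ligase that works with Parp9 (90.1 CPM in HDCA+CLP against 40 in CLP; log2 ratio 1.17, 0.78 to 1.56), the triglyceride enzyme Dgat1 (118 CPM in HDCA+CLP against 57.3 in CLP; log2 ratio 1.04, 0.70 to 1.37), the vesicle coat gene Sec24a (log2 ratio 1.22) and the ubiquitin ligase Rnf125 (log2 ratio 1.07). The ratio of Dgat1 was 0.93 without monocyte-marked cells, and its level in Sham was 15.3 CPM, and Parp9 had a log2 ratio of 0.91. Ranked next, under 2-fold, were Mxd1 (log2 ratio 0.78), P2ry10 (log2 ratio 0.93) and the long non-coding RNA Kcnq1ot1 (log2 ratio 0.82). Among the lowest were AY036118, a transcript with ribosomal RNA sequence (280.0 CPM in HDCA+CLP against 639 in CLP; log2 ratio -1.19, -1.36 to -1.02), and, besides genes already given, the tubulin gene Tuba1c (log2 ratio -0.86). Among 3942 genes measured in both subsets, none was past 2-fold in opposite directions in CD27-negative and CD27-positive cells. With 0.439% of all measured genes higher and 1.5% lower in members, there was little room for opposite calls. The 0 therefore does not show that the subsets agree.

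HDCA+CLP over Sham gave 174 of 4558 measured genes higher (3.82%) and 303 lower (6.65%) past 2-fold, or 246 and 168 with size factors, and an all-gene median of -0.19. It shares a library with each of the comparisons above and is no further support for them. Genes it adds by rank are Lilr4b, an inhibitory immunoglobulin-like receptor (106 CPM in HDCA+CLP, 79.6 in CLP and 3.06 in Sham; log2 ratio 5.11, 3.23 to 8.17), the purine receptor P2ry14 (77.9, 51.3 and 9.17 CPM in the same order; log2 ratio 3.09, 1.91 to 4.57) and, lower, Samd3 (log2 ratio -2.06). Late maturation genes had 7 of 15 lower and 1 higher past 2-fold, against 7 of 16 and 1 in CLP over Sham. Type I interferon response genes had 1 of 25 lower and 12 higher, or 1 of 23 lower and 13 higher without monocyte-marked cells.

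Members varied among themselves within each library. Thinned to 2000 UMIs, all HDCA+CLP and Sham members and 99.5% of CLP members had Gzma, with medians of 53.5, 56 and 28 UMIs and quartiles of 40 and 74.3 in HDCA+CLP, 40 and 75 in CLP, and 21 and 39 in Sham. The upper quartile of Sham lay below the lower quartile of both surgery libraries. Gzmb had quartiles of 5 and 17 UMIs in HDCA+CLP, 4 and 14 in CLP, and 0 and 3 in Sham, and its highest member had 49, 147 and 18. Ly6a was found in a part of the members only, with a mean of 1.14 UMIs and a maximum of 10 in HDCA+CLP, 0.632 and 9 in CLP, and 0.00735 and 1 in Sham. Prf1 had medians of 3, 3 and 2 UMIs, and Ccl5 of 87, 84 and 48.

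Ly49 receptors are spread so that single NK cells carry different sets of Klra genes. The median member had 2 of 6 Klra genes in each library, and at least 3 were found in 92 of 224 HDCA+CLP members (41.1%, 34.6 to 47.8), 158 of 429 CLP members (36.8%, 32.3 to 41.6) and 51 of 136 Sham members (37.5%, 29.4 to 46.2). In B-gate cells at most 0.341% had as many. Of CD27-positive NK cells, 38.3% (27.7 to 49.7) in HDCA+CLP, 32.7% (25.5 to 40.6) in CLP and 54.5% (40.6 to 68.0) in Sham had at least 3. The number of genes found per thinned member had medians of 940, 909 and 1016.

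**Figure D5:**
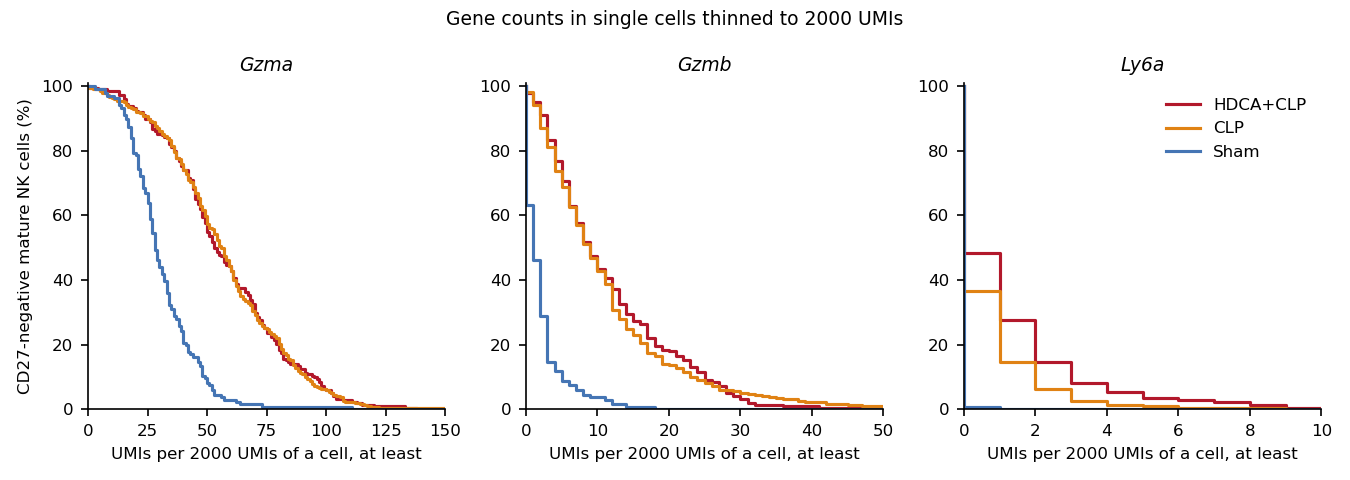
Percent of CD27-negative mature NK cells (y axis) with at least the given number of UMIs (x axis) of Gzma, Gzmb and Ly6a in HDCA+CLP, CLP and Sham, each cell thinned to 2000 UMIs. For Gzmb and Ly6a the HDCA+CLP and CLP curves lie at or right of Sham throughout, for Gzma the curves cross at 13 UMIs or fewer and lie right of Sham above that, and for Gzmb the medians were 9, 9 and 1 UMIs.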

How the data were processed

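Droplet 3′ libraries (10x Chromium v3, paired reads of 150 bp, per the labels' protocols) of blood digested with hyaluronidase and DNase I were deposited as raw UMI counts per gene and cell, made with Cell Ranger 5.0.1 on mm39, per the submitters' processing notes, which also name Seurat 4.0.6 and R 4.0.3. The deposited counts have no replicates, so no test was made; depth was 95178381 UMIs in 12205 barcodes of HDCA+CLP, 87031721 in 11387 of CLP and 42427093 in 7159 of Sham.

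Cells were gated by the stated rule, with no further doublet removal; doublets called from simulated ones were 4 HDCA+CLP, 6 CLP and 3 Sham members. Python 3.11.15, NumPy 2.4.6, SciPy 1.17.1, pandas 2.3.3, scikit-learn 1.9.0 and matplotlib 3.10.9 were used. The code for ratios and intervals was run on summed counts drawn from the Poisson model that the intervals assume. That run cannot show how the intervals hold with spread between cells or mice. Named genes were the 8 highest and 8 lowest by the interval bound nearest to 0 (at least 50 UMIs and 50 CPM, past the free RNA limit, without rule genes and genes that are mitochondrially encoded, predicted, sex-linked markers or of ribosomal proteins, haemoglobins and antigen receptors), the 3 highest and lowest of each list, and some fixed genes; other list members were named after their values were seen. The members and the 21 lists were chosen with earlier results of these data known. The monocyte-marked, free RNA and B-gate alternatives were chosen after seeing the data. Some named genes are not reported here.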

Additional observations from a re-analysis of the deposited data

How the results depend on the processing

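No paired analysis was possible because each group is 1 library. With intervals for counting error only, mouse-to-mouse spread is not measured, and Sham, with the fewest members and UMIs, limits each comparison with it. Counts are given as higher and lower past 2-fold. CLP over Sham, 298 and 637, became 182 and 320 with at least 100 UMIs a gene, 996 lower with at least 20, 176 and 346 when cells were thinned to 2000 UMIs before gating, and 483 and 298 with size factors. HDCA+CLP over CLP, 28 and 96, became 9 and 38 with at least 100 UMIs, 123 and 188 with at least 20, 51 lower when thinned, 45 higher with 0 T cell UMIs, 50 higher as a mean over cells, 57 lower without called doublets and 36 lower without monocyte-marked cells. HDCA+CLP over Sham, 174 and 303, became 96 and 132 with at least 100 UMIs, 293 and 624 with at least 20, 105 and 191 when thinned, and 168 lower with size factors. CD27-negative over CD27-positive cells gave 43 and 8 in HDCA+CLP when thinned (69 and 13 before). In CLP (111 and 44 before) it gave 25 lower when thinned, 62 higher without called doublets, and 50 and 24 without monocyte-marked cells. In Sham (57 and 26 before) it gave 34 and 9 when thinned, 11 lower with 0 T cell UMIs and 15 lower without monocyte-marked cells. Fewer genes pass a higher minimum by construction. Thinning was used for the gate only, and ratios then used the full counts of the 106 HDCA+CLP, 221 CLP and 100 Sham cells that passed. These are fewer cells with fewer UMIs in sum, and they can include cells outside the main gate, such as cells with Cd27 UMIs at full depth. The cause of the other moves was not tested. Thinned, members were 0.906% of HDCA+CLP, 2.11% of CLP and 1.49% of Sham cells, and 29.6%, 29.3% and 41.5% of NK-gated cells (45.4%, 43.8% and 53.0% before). With a mitochondrial limit of 5%, members were 4.42% of CLP and 2.97% of Sham cells (4.0% and 2.05% before). The log2 ratio of Ifitm3 for HDCA+CLP over CLP, -2.03, was 0.59 without monocyte-marked cells; no other named gene's ratio or list median past 0.5 in size changed sign in a setting run where the gene was measured. Slfn5 was not measured without monocyte-marked cells (under 50 UMIs). Named genes that no longer passed 2-fold when thinned before gating were Bcl2a1b, Gapdh, Hif1a, Ifng, Itgal, Jak1, Klra1 and Nfkbia in CLP over Sham, Dgat1, Eif2ak2, Gnl3, Ifitm3, Lat, Lgals3, Rnf125 and Sec24a in HDCA+CLP over CLP, and Cx3cr1 in HDCA+CLP over Sham. With size factors they were Bach2, Btg2, Cd226, Cxcr4, Fasn, Il18r1, Itgal, Jak1, Klra1, Sp100 and Stat4 in CLP over Sham and Dgat1 in HDCA+CLP over CLP. As a mean over cells they were Cxcr4, Emb, Gapdh, Hif1a, Itgal, Jak1, Klra1 and Nfkb2 in CLP over Sham, and Cenpf, Gnl3, Ifitm3, Il15ra, Lgals3, Myc and Rnf125 in HDCA+CLP over CLP. In CLP over Sham and HDCA+CLP over CLP, the list medians that moved by more than 1.5-fold were that of cell cycle genes in HDCA+CLP over CLP, -0.80 when thinned, and that of checkpoint genes in CLP over Sham, 0.12 when thinned and 0.29 with at least 100 UMIs.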
